A study of Mus musculus with 6 samples.

Results

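The genes described here encode the cubilin receptor complex and the proteins that carry vitamin B12 (cobalamin) through the cell. Cubn was chosen by its array values, since its level was lower in GGTase-I-deficient than in control intestinal epithelial cells, and the others were added for their function. All probe sets with a single platform symbol among these 8 genes were taken, out of 18193 genes on the array with a single symbol. The 8 genes had 23 probe sets, of which 14, from 6 genes, lay above 5 on the log2 scale on at least 3 arrays. The level 5 is a filter used here and not a measured background.

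Total RNA of intestinal epithelial cells from 6 mice was measured on Affymetrix arrays, 1 array per mouse. All 6 mice were of a mixed background of 129/SV and C57BL/6, carried the floxed Pggt-I beta gene and received 1 mg tamoxifen on each of 3 days. Cells were taken on day 6 after the first injection. The 3 controls were negative for VillincreERT2, a recombinase that tamoxifen activates and the promoter of the epithelial gene villin drives, and the 3 deficient mice were positive. Controls therefore lacked the recombinase itself, and its effect and that of the deletion cannot be told apart. The age and sex of the mice and the intestinal segment are unknown here. Pggt1b is the gene for the catalytic subunit of GGTase-I, the enzyme that attaches geranylgeranyl lipids to proteins.

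Cobalamin from food reaches the ileum bound to intrinsic factor. There cubilin, a large protein of the brush border with no membrane anchor of its own, binds the complex, and the membrane protein amnionless (Amn) anchors cubilin and carries the signals for its uptake through clathrin-coated pits. The vitamin is released in the lysosome, leaves that compartment with the help of Lmbrd1, and is passed across the basolateral membrane, in part through the ABC transporter Abcc1. In blood it is carried by transcobalamin (Tcn2), which other cells take up through the receptor Cd320.

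The upstream sequences of the genes of both receptor subunits are shown because these subunits work as 1 complex and both were read well above the filter. Both are the 250 bases before the RefSeq start of the gene, on the strand of the gene, in build GRCm38.p6. The Cubn window is chr2:13491877-13492126 on the minus strand and the Amn window chr12:111270846-111271095 on the plus strand. Capitals mark matches to the motifs searched, on either strand.
Cubn: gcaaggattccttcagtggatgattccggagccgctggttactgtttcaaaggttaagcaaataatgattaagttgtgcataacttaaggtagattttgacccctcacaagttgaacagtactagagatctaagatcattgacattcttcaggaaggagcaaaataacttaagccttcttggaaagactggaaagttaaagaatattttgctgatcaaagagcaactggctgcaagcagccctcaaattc
Amn: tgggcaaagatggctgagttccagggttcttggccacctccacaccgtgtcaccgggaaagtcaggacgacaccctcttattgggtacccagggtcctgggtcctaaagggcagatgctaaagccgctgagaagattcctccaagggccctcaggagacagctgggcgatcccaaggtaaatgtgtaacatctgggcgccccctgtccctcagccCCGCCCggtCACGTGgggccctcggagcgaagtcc

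The 2 windows differed in base composition. The Cubn window was 39.6% G or C, with 11.0% of the 32817 RefSeq windows of this length lower, and the Amn window was 61.2% G or C, with 74.8% lower. The Amn window held 1 E-box (CACGTG), which begins 26 bases before the start, and 1 Sp site (GGGCGG, read on the opposite strand), which begins 35 bases before it. The 2 matches do not overlap. An E-box stood in 6.02% of all windows and the Sp site in 32.7%. The Cubn window held no match to these or to the other motifs searched. These were AGATAA for GATA factors (9.99% of windows), TTTATG for CDX factors (10.8%) and TATAAA for the TATA box (12.4%). A match describes letters only. In all, 6 of the 8 genes had an entry in the RefSeq promoter table.

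The arrays were alike in range, with 35.5% to 36.5% of probe sets above 5 on each. The epithelial list (Epcam, Cdh1, Vil1 and keratins among its 8 genes) was above 5 throughout, with a median control level of 14.2, while 0 of 6 endothelial markers passed the filter. Pggt1b itself read 9.30, 9.55 and 9.33 in controls 1, 2 and 3 and 9.75, 8.88 and 8.83 in deficient arrays 1, 2 and 3, a log2 change of -0.24 ± 0.27 (SE, n = 3 per group; limma adjusted p = 0.678). This was its brightest probe set. Its other probe sets above 5 changed by -0.08 and 0.01, with overlapping groups. Whether these probes cover the part that was deleted is unknown here, so Pggt1b does not check the labels. Of 8893 genes tested, 186 (2.09%) passed a limma adjusted p of 0.05, 176 (1.98%) lower and 10 (0.112%) higher in deficient arrays. The 186 became 93 without control 1, 104 without control 3 and 101 without deficient array 2. The median log2 change of all genes tested was -0.04.

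Cubn was lower in every deficient array than in every control array, at 42.1% of the control level. Its brighter probe set read 12.18, 12.39 and 12.46 (log2) in controls 1, 2 and 3 and 10.97, 11.41 and 10.91 in deficient arrays 1, 2 and 3. The group means were 12.3 ± 0.14 and 11.1 ± 0.27 (SD, n = 3 each), a difference of -1.25 ± 0.19 (SE) or 2.38-fold lower. All 3 deficient arrays lay below the lowest control.

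The other Cubn probe set gave the same picture. It read 10.71, 10.44 and 11.11 in controls and 9.25, 9.92 and 9.27 in deficient arrays 1, 2 and 3, a difference of -1.28 or 2.42-fold lower. Deficient array 2 was the highest of its group on both probe sets, and control 3 the highest of all 6. Both probe sets were designed on 1 cDNA record, and the name of the brighter one marks a design that can match several transcripts, so they are not independent readings. Since Cubn was chosen for this difference, the values are a description and carry no test. When 1 array was left out the difference of the brighter probe set ran from -1.41 to -1.15.

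**Figure D1:**
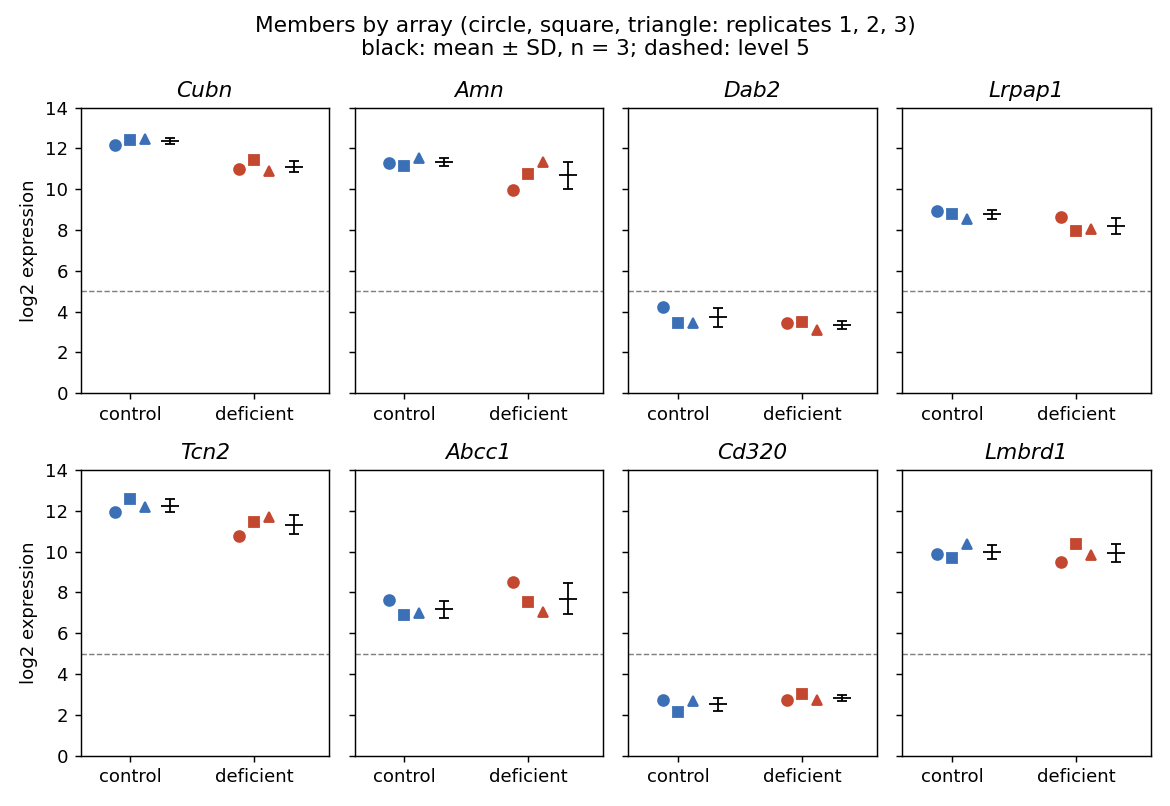
Log2 expression (vertical axis) of the 8 genes on the 3 control (blue) and 3 deficient (red) arrays, 1 probe set per gene; circles, squares and triangles are replicates 1, 2 and 3, and black marks are group means ± SD. Cubn and Tcn2 do not overlap between groups, Amn, Lrpap1, Abcc1 and Lmbrd1 do, and Dab2 and Cd320 lie below the dashed level 5 on all 6 arrays.

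Outside Cubn, 0 of the 5 other genes tested passed the limma adjusted p of 0.05 in either direction, against the 2.09% called over all genes. At an unadjusted p under 0.05 there was 1 (Tcn2), where 16.9% of all genes tested reached that level. Means were lower in deficient arrays for 4 of the 5, against 54.6% of all genes, and their median log2 change was -0.55. Groups did not overlap for 1 of the 5, again Tcn2, against 25.7% of all genes. Dab2 and Cd320 did not pass the filter and were not tested.

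Amn, which anchors cubilin, spread widely among the deficient mice. Its 1 probe set read 11.29, 11.15 and 11.53 in controls 1, 2 and 3 and 9.97, 10.73 and 11.32 in deficient arrays 1, 2 and 3. Deficient array 3 lay among the controls, while deficient array 1 was the lowest of all. The difference was -0.65 ± 0.34 (SE), with a 95% interval from -1.46 to 0.15 and a limma adjusted p of 0.371. It was -0.30 without deficient replicate 1 and -0.97 without deficient replicate 3. For Cubn these 2 arrays lay close together. On the brighter probe set deficient array 3, the highest of its group for Amn, was lowest, at 10.91 against 10.97 in deficient array 1. On the other probe set deficient array 1 was lowest, at 9.25 against 9.27 in deficient array 3. Whether the changes of the 2 subunits differ was not tested.

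Dab2, the clathrin adaptor that links the Amn tail to the coated pit, was near the floor. Its 4 probe sets read between 2.02 and 4.25 over all 6 arrays, below the level 5 in both groups, so no difference is given for it. Lrp2 (megalin), the large endocytic receptor that works beside cubilin in kidney and yolk sac, stood at 2.78 in controls and 2.77 in deficient arrays, and Cblif, which encodes intrinsic factor and is made in the stomach, at 2.99 and 3.08. These readings say only that these probe sets did not rise above 5 in these cells.

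Lrpap1, the chaperone of the endoplasmic reticulum that keeps newly made receptors of the low density lipoprotein (LDL) receptor family from binding ligands early, was lower on average. The brightest of its 4 probe sets read 8.95, 8.80 and 8.54 in controls and 8.65, 7.94 and 8.04 in deficient arrays 1, 2 and 3. Deficient array 1 lay above the lowest control. The change was -0.55 ± 0.24 (SE), with a 95% interval from -1.12 to 0.01 (limma adjusted p = 0.299). A second probe set above 5 changed by -0.53, with groups that did not overlap (adjusted p = 0.233 in the fit of all 16281 probe sets above the filter). The remaining pair of Lrpap1 probe sets stayed below 5 on all 6 arrays.

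Tcn2, the transport protein of cobalamin in blood, had the largest difference of the members tested beside Cubn. The probe set used for it read 11.94, 12.58 and 12.20 in controls and 10.79, 11.47 and 11.69 in deficient arrays 1, 2 and 3. All deficient arrays lay below all controls. The change was -0.93 ± 0.29 (SE) or 1.90-fold lower, with a 95% interval from -1.61 to -0.25, an unadjusted limma p of 0.0146 and an adjusted p of 0.197. It therefore did not pass over all genes, and with 3 against 3 arrays an exact permutation test of a single value cannot give a two-sided p below 0.1.

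Every one of the 5 Tcn2 probe sets had non-overlapping groups, with changes from -0.93 to -1.61, where 24.4% of all probe sets tested did not overlap. These 5 read 1 transcript in the same RNA samples and are not replicates of each other. The probe set with the largest difference read 9.37, 9.66 and 9.41 in controls and 6.73, 8.28 and 8.58 in deficient arrays 1, 2 and 3, or 3.06-fold lower (limma adjusted p = 0.196 over probe sets). Adjusted p over the 5 ran from 0.196 to 0.319. On each of them deficient array 1 was the lowest. Without that array the change of the probe set used for the gene was -0.66. Of the 5, 4 carry a name that marks designs open to cross-hybridisation.

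**Figure D2:**
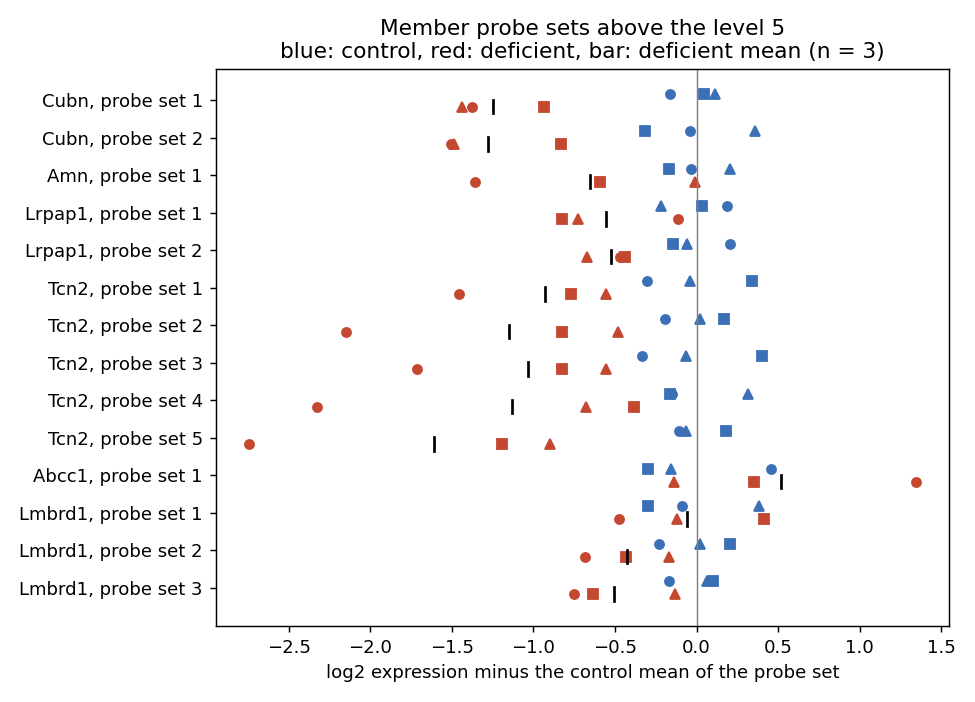
Each row is 1 of the 14 member probe sets above the filter, and the horizontal axis is log2 expression minus the control mean of that probe set; blue marks are controls, red marks deficient arrays (circle, square and triangle for replicates 1, 2 and 3) and the black bar is the deficient mean. All 3 red marks lie left of all blue marks for both Cubn and all 5 Tcn2 probe sets, and deficient array 1 (red circle) is farthest left for every Tcn2 probe set.

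Among all 14 member probe sets above the filter, 13 had lower means in deficient arrays, against 49.8% of all probe sets tested, and 8 had groups that did not overlap, against 24.4%. Both Cubn probe sets are among these 8, with 5 of Tcn2 and 1 of Lrpap1. Several probe sets share a gene and Cubn set the choice, so nothing is read from these shares.

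Abcc1, a basolateral exporter that also moves glutathione conjugates and leukotrienes, had a higher mean in the deficient group. Its brighter probe set read 7.62, 6.87 and 7.01 in controls and 8.51, 7.52 and 7.03 in deficient arrays 1, 2 and 3. The groups overlapped, and deficient array 1 stood highest. The change of 0.52 ± 0.40 (SE), with a 95% interval from -0.43 to 1.47, did not pass (limma adjusted p = 0.528). It was 0.11 without deficient replicate 1 and 0.85 without deficient replicate 3. The other Abcc1 probe set read 2.35 to 2.61 on all arrays.

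Lmbrd1, the lysosomal membrane protein needed for cobalamin to reach the cytosol, did not separate the groups. Its brightest probe set read 9.89, 9.68 and 10.36 in controls and 9.51, 10.39 and 9.86 in deficient arrays 1, 2 and 3, a change of -0.06 ± 0.29 (SE; 95% interval from -0.74 to 0.62; limma adjusted p = 0.926). The interval still holds changes of either sign. The 2 dimmer probe sets for Lmbrd1 changed by -0.43 and -0.51, with overlapping groups and adjusted p of 0.351 and 0.307 over probe sets, so the 3 differ in size. The sign for the brightest turned to 0.13 without control replicate 3, to 0.15 without deficient replicate 1 and to 0.016 when arrays were centred on their medians. Both Cd320 probe sets, for the receptor that takes up transcobalamin, read between 2.15 and 3.01 on all 6 arrays.

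The further steps of cobalamin use inside the cell held no gene past the threshold. Of 12 genes listed around these steps, not all of which process or use the vitamin, 8 were tested. With limma 0 passed in either direction (2.09% of all genes did). At an unadjusted limma p under 0.05, 1 was lower and 0 higher, where 11.3% of all genes were lower at that level. The median log2 change was -0.28. Mmut, the mitochondrial methylmalonyl-CoA mutase that uses adenosylcobalamin, read 9.55, 9.61 and 9.66 in controls and 8.80, 8.91 and 9.28 in deficient arrays 1, 2 and 3. These groups did not overlap, as for 25.7% of all genes tested (log2 change -0.61 ± 0.18, SE; limma adjusted p = 0.185). Mcee, the epimerase one step before it, was at -0.43 (adjusted p = 0.332). Mtr, the cytosolic methionine synthase that uses methylcobalamin, was below the filter at 3.03 and 2.79.

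Partners of cubilin and components of apical endocytosis held no gene past the threshold. Of 22 listed genes 17 were tested, 6 with lower means (54.6% of all genes were lower) and 11 with higher ones, and their median log2 change was 0.14. With limma 0 passed, and at an unadjusted p under 0.05 there were 2 higher and 0 lower, where 16.9% of all genes reached that level. Rab11a, a GTPase of recycling endosomes, read 11.88, 11.89 and 12.33 in controls and 13.07, 12.74 and 12.61 in deficient arrays 1, 2 and 3. Its groups did not overlap, as for 25.7% of all genes tested (change 0.77 ± 0.21, SE; limma adjusted p = 0.154). Gipc1, an adaptor that links endocytic receptors to myosin VI, was at 0.90 with overlapping groups (limma adjusted p = 0.287). It lay above 5 on 4 of 6 arrays, with controls 2 and 3 below that level at 4.345 and 4.719. The clathrin heavy chain gene Cltc and the adaptor subunit gene Ap2m1, given as values after they were seen, were at 0.07 and -0.06.

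In the LDL receptor family, whose members Lrpap1 escorts, 6 of 10 genes were tested and 0 passed with limma, with 2 lower and 0 higher at an unadjusted p under 0.05, where 11.3% of all genes were lower at that level. Their median log2 change was -0.11. Sorl1, a sorting receptor, read 9.43, 8.81 and 9.12 in controls and 8.55, 8.08 and 8.23 in deficient arrays (change -0.84 ± 0.22, SE; adjusted p = 0.150). Lrp1, a broad endocytic receptor also present on macrophages and stromal cells, read 9.15, 9.31 and 9.20 in controls and 8.61, 8.76 and 8.70 in deficient arrays (change -0.53 ± 0.15, SE; adjusted p = 0.164). For both genes all deficient arrays lay below all controls, as for 16.7% of all genes tested.

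Lysosomal genes, which serve the step at which cobalamin is set free, gave 0 of 20 past the threshold with limma. At an unadjusted p under 0.05, 2 were lower and 1 higher, where 16.9% of all genes reached that level, and the median log2 change was -0.14. Ctsa, the carboxypeptidase cathepsin A, read 10.81, 10.91 and 10.93 in controls and 9.89, 10.09 and 10.25 in deficient arrays 1, 2 and 3 (change -0.80 ± 0.16, SE; adjusted p = 0.0714). Ctsd, the protease cathepsin D, was at -0.66 (adjusted p = 0.127). Both had non-overlapping groups, as did 25.7% of all genes. The change of largest size in the list was that of Lgmn, the protease legumain, named here after its values were seen, at 1.24 (limma adjusted p = 0.202). Lgmn read 5.27, 4.68 and 5.93 in controls and 6.71, 6.98 and 5.91 in deficient arrays 1, 2 and 3. Its groups overlapped, and control 2 lay below the level 5.

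**Figure D3:**
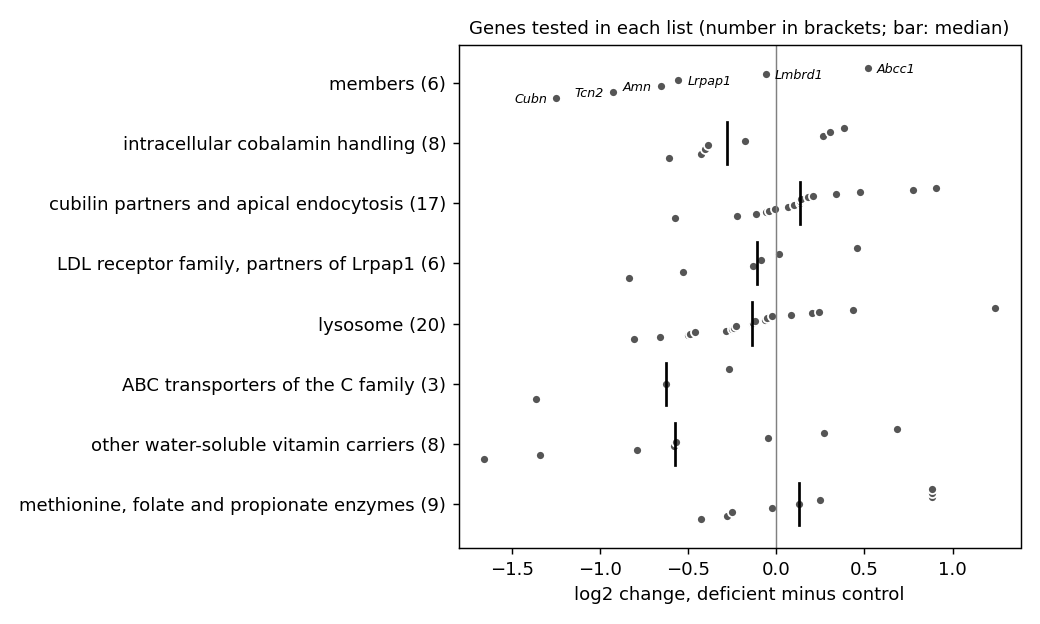
Each point is the log2 change (deficient minus control, horizontal axis) of 1 tested gene; rows are the gene lists with the number tested, the top row names the 6 tested members, and bars mark the median of each other list. Cubn is the leftmost member at -1.25, while the list of cubilin partners and apical endocytosis has its median at 0.14.

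By the root mean square difference of log2 values centred on each gene's own mean over the 6 arrays, the 5 tested genes most like Cubn were Irs2 (0.155), Ppara (0.163), Akr1c19 (0.173), Pde3b (0.188) and 2810408A11Rik (0.210). Ppara, a nuclear receptor for fatty acids, read 9.24, 9.32 and 9.77 in controls and 8.21, 8.48 and 8.32 in deficient arrays 1, 2 and 3. Irs2, an adaptor of insulin signalling, read 8.84, 9.01 and 9.08 in controls and 7.99, 8.01 and 7.48 in deficient arrays. Since this measure is taken over the arrays that chose Cubn, these genes carry the same gap between the groups. Among the other members Tcn2 ranked 114 in likeness to Cubn, so that 1.27% of genes were nearer. Lrpap1 and Amn followed at ranks 1255 and 1414, Lmbrd1 at 3431 and Abcc1 at 8187.

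Cubilin is a gene of ileal enterocytes, and the preparations differed in segment markers. The mean of the 5 ileal genes (Slc10a2, Fabp6, Fgf15, Slc51a and Slc51b), relative to the control mean, was 0.73, -1.61 and 0.88 in controls 1, 2 and 3 and 0.85, 0.90 and 0.04 in deficient arrays. Control 2 was the lowest array for ileal genes. It read 12.39 on the brighter Cubn probe set, between the other controls, and 10.44 on the other, where it was the lowest control. Without it the difference of the brighter Cubn probe set was -1.22 and the Tcn2 change -0.76. The part of the segment sampled in the values of Cubn was not tested. With limma 0 of the 5 ileal genes passed, against 2.09% of all genes. At an unadjusted p under 0.05 there were also 0, where 16.9% of all genes reached that level. Slc51a, a bile acid exporter subunit, was at -0.55 and the hormone gene Fgf15 at 1.94 (limma adjusted p = 0.475 and 0.547). Fgf15 lay above 5 on only 3 arrays, so its change is not read as a fold. It read 6.93, 2.50 and 4.90 in controls and 8.67, 7.96 and 3.52 in deficient arrays 1, 2 and 3. These readings enter the ileal means given above. The proximal list stood at 0.85 in control 2, against -0.54 and -0.32 in the other controls and 0.92, -0.12 and 0.73 in deficient arrays 1, 2 and 3. Of its 6 genes 0 passed with limma, against 2.09% of all genes. At an unadjusted p under 0.05, 1 was higher and 0 lower, where 16.9% of all genes reached that level. The higher gene was Cybrd1, a brush border ferric reductase. It read 5.05, 8.21 and 6.16 in controls and 10.99, 8.44 and 9.62 in deficient arrays. Its change was 3.21 ± 0.91 (SE), with a limma adjusted p of 0.170. The Cybrd1 readings enter the proximal means given above. The median log2 change of the 6 proximal genes was 0.008, with lower means for 3 and higher means for 3. The iron transporter gene Slc11a2 was at -0.47 (adjusted p = 0.326). The 3 colon genes tested (Car1, Aqp8 and Hoxb13) stood at -0.08 to 0.08 in controls and at 1.21, -0.71 and -0.07 in deficient arrays 1, 2 and 3. With limma 0 of these 3 genes passed (2.09% of all genes did), and 0 reached an unadjusted p under 0.05 (16.9% of all genes). Hoxb13 was at 0.33 and Car1 at -0.14.

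Enterocyte markers held no gene past the threshold. Of 9 tested, 0 passed with limma, against 2.09% of all genes. At an unadjusted p under 0.05, 1 was lower, as were 11.3% of all genes. This was the lactase gene Lct (limma adjusted p = 0.273). It read 14.37, 14.66 and 14.46 in controls and 12.67, 13.92 and 14.06 in deficient arrays 1, 2 and 3. Dpp4, a brush border peptidase, was at -0.40 (adjusted p = 0.605). The mean of the list was lowest in deficient array 1, at -0.44, against -0.23 to 0.12 in controls and -0.01 and -0.02 in the other deficient arrays. The genes of the list did not move together: means were lower in deficient arrays for 5 of the 9 and higher for 4. Deficient array 1 was the lowest of the 6 for Lct and for Dpp4 (11.18), as for Amn and Tcn2. It was also the lowest for Fabp1, Anpep and Mttp of this list, at 15.60, 10.72 and 13.63. For Alpi and Apoa1 the same array was the highest of the 6, at 14.42 and 16.06. For Apoa4 and Fabp2 it was neither. Apart from Lct and Dpp4, these genes of the list were named after their values were seen.

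Markers of leukocytes were lower in the same arrays. In the T cell and intraepithelial lymphocyte list 10 of 12 genes passed in the lower direction with limma, against 1.98% of all genes, and its mean level was -0.05 to 0.09 in controls and -4.08, -3.29 and -2.61 in deficient arrays 1, 2 and 3. In the myeloid list 4 of 9 tested genes passed as lower, and its level was -0.25 to 0.44 in controls and -1.76 to -1.07 in deficient arrays. Cd3g, of the T cell receptor complex, and the adaptor gene Tyrobp changed by -4.39 and -2.95 (limma adjusted p = 0.0089 and 0.0046). Nkg7, Cd3d and Cd7 of the first list were at -4.33, -4.07 and -3.95, and Fcer1g, Adgre1 and Itgax of the second at -2.45, -1.96 and -1.81. The myeloid genes tested that did not pass were C1qb at -1.07, C1qa at -0.88, Csf1r at -0.64, Lyz2 at -0.41 and Cd14 at -0.31. All of these but C1qb had overlapping groups. Cd3d, Cd7, Il2rb and Itgax lay at or below 5 on all 3 deficient arrays and passed the filter through the controls alone, so that they had to differ, and nothing is read from these counts. In bulk RNA, fewer cells of a type and less RNA per cell cannot be told apart. Of the myeloid markers, Itgam, Cd68, Cd163, Mrc1 and C1qc did not pass the filter. Stromal markers, 5 tested, had 0 past the threshold with limma. At an unadjusted limma p under 0.05, 3 were lower, as were 11.3% of all genes. The level of the list was -0.30 to 0.50 in controls and -0.999 to -0.458 in deficient arrays. Means were lower for 3 of the 5, with Vim at -1.07 and Col1a2 at -1.69. They were higher for 2, Pdgfrb at 0.41 and Acta2 at 0.06. The part of these cells in the values of Cubn, Tcn2, Lrp1 and the lysosomal genes was not tested. The level of the epithelial list was -0.08 to 0.08 in controls and 0.11 to 0.45 in deficient arrays. With limma 0 of its 8 genes passed, against 2.09% of all genes. At an unadjusted p under 0.05, 2 were higher and 0 lower, where 16.9% of all genes reached that level. These 2 were Krt18 at 0.95 and Krt19 at 0.69, while Vil1 was at -0.27.

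**Figure D4:**
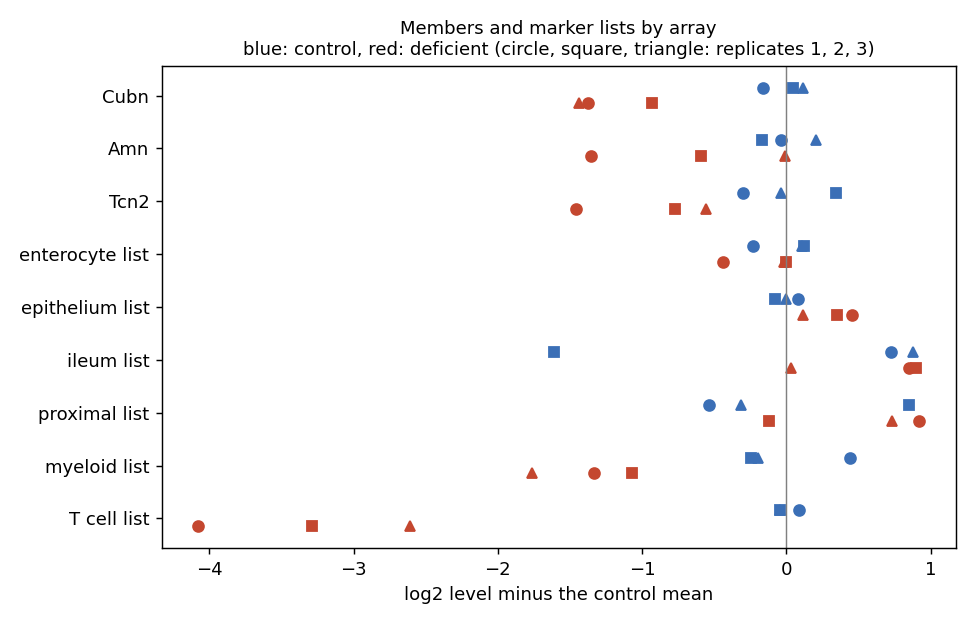
Rows are 3 members and 6 marker lists, and the horizontal axis is the log2 level minus the control mean for each array (blue controls, red deficient; circle, square and triangle for replicates 1, 2 and 3). The T cell list lies between -4.08 and -2.61 in deficient arrays, and control 2 stands apart at -1.61 in the ileum list. For Cubn the brighter probe set is drawn, on which control 2 lies between the other controls; on the other probe set it is the lowest control.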

How the data were processed

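The authors deposited log2 expression values for every probe set on every array; Partek 6.5 and GCRMA are named in the submitters' processing notes, with no step given. The log2 scale was read from the values (0.42 to 16.4). Such background models gather dim probe sets near a floor. No detection calls or scanner intensities were used here, and 3 arrays per group limit the precision.

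Of 45101 probe sets, 64 controls were left out; 34945 had 1 symbol, 932 several and 9160 none. Entrez IDs of 34741 matched GRCm38.p6, changing 0 symbols. A gene was read at its probe set with the highest mean, and genes above 5 on at least 3 arrays were tested (limma 3.58.1, R 4.3.3, lmFit and eBayes, no covariate, Benjamini-Hochberg over all genes). Further probe sets were read from a fit of all probe sets. The fit was tested on simulated data. Errors are SDs over mice or standard errors of the fit. Nothing in the labels gives a batch.

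Members and lists (182 entries, 171 on the array) were chosen with earlier results of these data known. Named genes are the members, Pggt1b, up to 4 called genes per list or else the 2 with the smallest p, and the 5 genes most like Cubn. Lrp2, Cblif, Mtr, Cltc, Ap2m1, Vil1, Lgmn and Il2rb were named after their values were seen. So were Alpi, Apoa1, Apoa4, Fabp1, Fabp2, Anpep, Mttp, C1qa, C1qb, Csf1r, Lyz2, Cd14, Pdgfrb and Acta2. Other markers were named only as contents of their lists. Alternatives changed variance moderation, array weights, filter, normalization, the reading of probe sets and the replicate block, or dropped 1 array at a time.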

Additional observations from a re-analysis of the deposited data

How the results depend on the processing

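The count of members called other than Cubn was 0 in each direction under all 15 alternatives. Over all genes, 186 passed in the fit as reported, 293 with array weights, 85 without a filter on low values, 117 with the mean of all probe sets, and 93 to 239 when 1 array was left out. Cubn, Amn, Lrpap1, Tcn2 and Abcc1 kept their direction under every alternative that gave a value. Their changes ran from -1.41 to -1.15, -0.97 to -0.30, -0.78 to -0.42, -1.17 to -0.66 and 0.11 to 0.85. Variance moderation, the filter, probe sets fitted singly and the replicate block leave the change itself as it was. For Cubn and Tcn2, whose groups do not overlap, leaving out 1 array cannot turn the sign. Direction was therefore largely fixed beforehand, and nothing is read from it. Abcc1 fell below the filter with the mean of all probe sets and has no value there. Lmbrd1 turned sign under median centring (0.016), and ran from -0.30 to 0.15 when 1 array was left out. The lowest adjusted p over alternatives was 0.121 for Tcn2. With replicate block, 141 genes passed and 0 of these members. The numbers do not pair the samples: deviations of same-numbered arrays correlated at 0.05, -0.29 and 0.00, and not every array correlated best with its own number. The 3 arrays per group limit the precision, and probe sets near the floor give no fold.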

Other observations

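Carriers of other water-soluble vitamins were read from a list of 11 genes. Of 8 tested, 0 passed with limma in either direction, and the median log2 change was -0.58. With 1 lower and 0 higher at an unadjusted limma p under 0.05, the share of all genes lower at that level was 11.3%. Slc46a1, the proton-coupled folate transporter of the proximal intestine, read 9.30, 11.16 and 9.66 in controls 1, 2 and 3 and 8.08, 7.87 and 9.21 in deficient arrays 1, 2 and 3. Its groups did not overlap, as for 25.7% of all genes tested (change -1.65 ± 0.56, SE; limma adjusted p = 0.221). For Slc46a1 control 2 was the highest array. Slc19a1, the reduced folate carrier, read 7.46, 9.39 and 7.996 in controls and 6.25, 6.79 and 7.79 in deficient arrays (change -1.34 ± 0.57, SE; adjusted p = 0.297). Control 2 was again the highest, and the groups overlapped. Without control replicate 2, left out here after these values were seen, the changes were -1.09 and -0.79.

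Enzymes of methionine, folate and propionate metabolism had 9 tested genes, of which 0 passed with limma. At an unadjusted limma p under 0.05, 2 were higher and 0 lower, where 16.9% of all genes reached that level. Mthfd2, a mitochondrial folate enzyme, read 7.29, 6.58 and 6.97 in controls and 7.75, 8.21 and 7.54 in deficient arrays (change 0.88 ± 0.26, SE; adjusted p = 0.181). Shmt2, the mitochondrial serine hydroxymethyltransferase, was at 0.88 as well (adjusted p = 0.283). For both genes all deficient arrays lay above all controls, as for 9% of all genes tested. For Shmt2 this was close to a tie, with control 1 at 6.304 and deficient array 3 at 6.307. Control 2 read 4.99 for Shmt2, below the filter level. Of 6 further transporters of the ABC C family 3 were tested, and 0 passed with limma, against 2.09% of all genes. At an unadjusted limma p under 0.05, 1 was lower, as were 11.3% of all genes. This was Abcc6, at -1.36 with 4 of 6 arrays above 5 (limma adjusted p = 0.201). Abcc2, an apical exporter, was at -0.62 (limma adjusted p = 0.395).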
